A study of Homo sapiens with 6 samples.

Results

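The 6 genes described here are STK11, KEAP1, SMARCA4, CDKN2A, CDKN2B and MTAP, which are known as mutated or deleted in the human lung adenocarcinoma line A549 or lie beside such a gene. They were chosen by symbol from the 58676 genes listed, and all 6 were found. The study compared A549 Rec, that is A549 cells that stably carry a retroviral pMXs-puro vector with myc-tagged human recoverin cDNA, with A549 MOCK, which carry the empty vector. The vector is thus shared by both groups, puromycin selection is described for the recoverin cells and not spelled out for A549 MOCK, and recoverin is a calcium sensor of photoreceptors that A549 cells do not normally express. Each group had 3 libraries (replicates 1 to 3) of RNA from 2D cultures, and the values are TPM (a transcript level per gene length that adds up to the same sum in each library). All samples are from 1 cell line, and A549 cells without the vector were not analysed here.

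The libraries held between 15171900 and 18554796 reads, as recovered from the TPM values. RCVRN, the gene of recoverin, was listed at 0 in the 3 A549 MOCK libraries and had a TPM of 322.2, 338.0 and 339.1 in the A549 Rec libraries, which goes with the labels. The epithelial markers KRT18 and KRT8 were abundant, with a lowest TPM of 2158 and 1925, and CDH1 lay between 109 and 148, whereas EPCAM (0.979 to 2.98) and KRT19 (at most 0.325) were low. Among alveolar markers NKX2-1 did not exceed 0.113 TPM while NAPSA lay between 2.07 and 4.38, among leukocyte markers PTPRC did not exceed 0.0866 while CD74 lay between 3.81 and 9.85, and the fibroblast marker COL1A1 lay between 2.21 and 5.14. The 5 epithelial markers summed to between 4193 and 5886 TPM in A549 MOCK and between 5497 and 6343 TPM in A549 Rec. The 37 mitochondrially encoded genes took 13.6%, 15.7% and 34.5% of the A549 MOCK libraries and 17.3%, 13.3% and 26.9% of the A549 Rec libraries, in the order of the replicate number, the order used throughout. Both replicate 3 libraries therefore stand apart, and since TPM values share a fixed sum, the levels of the detected genes are given also without these mitochondrial genes.

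The 6 genes act in several pathways. STK11 encodes LKB1, a kinase that phosphorylates and thereby activates AMPK and related kinases. KEAP1 is the adaptor of a ubiquitin ligase that holds down NRF2, the main activator of antioxidant genes, and lung cancers often lose it together with STK11. SMARCA4 encodes BRG1, an ATPase that drives the SWI/SNF complexes, which move nucleosomes. CDKN2A encodes both the CDK4 and CDK6 inhibitor p16 and, from another first exon, ARF, which binds MDM2, while its neighbour CDKN2B encodes the related inhibitor p15. MTAP, the next gene on 9p21, recycles methylthioadenosine to methionine and is often lost with CDKN2A in tumours. A mutation within a gene need not change its transcript level, while a homozygous deletion removes the transcript.

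The sequences just upstream of the starts of the 3 genes on 9p21 are shown first, because their transcripts were the ones with little or no signal. Each is 120 bases 5′ to 3′ on the strand of the gene, from RefSeq on GRCh38.p14, with every CpG in capitals. CDKN2A has 2 such starts, and its ARF start (chr9:21995325-21995444, minus strand) comes before its p16 start (chr9:21974858-21974977, minus strand). The windows of CDKN2B (chr9:22009306-22009425, minus strand) and MTAP (chr9:21802516-21802635, plus strand) follow.
CDKN2A, ARF start: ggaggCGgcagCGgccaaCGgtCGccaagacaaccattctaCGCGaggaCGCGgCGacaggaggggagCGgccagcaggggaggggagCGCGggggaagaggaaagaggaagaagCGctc
CDKN2A, p16 start: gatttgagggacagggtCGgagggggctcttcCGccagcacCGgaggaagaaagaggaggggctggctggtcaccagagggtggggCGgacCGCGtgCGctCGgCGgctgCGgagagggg
CDKN2B: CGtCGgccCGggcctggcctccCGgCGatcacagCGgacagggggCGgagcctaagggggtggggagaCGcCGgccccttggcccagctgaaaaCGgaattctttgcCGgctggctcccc
MTAP: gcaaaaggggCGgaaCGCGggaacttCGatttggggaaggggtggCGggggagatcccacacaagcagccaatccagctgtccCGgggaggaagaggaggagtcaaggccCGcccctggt
Over 250 bases before the start, the ARF and p16 windows of CDKN2A held 24 and 20 CpG, that of CDKN2B held 18 and that of MTAP held 11. The median over 35116 RefSeq windows of this length was 11 CpG, so only the MTAP window was at the median and the others were above it.

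The windows of the 3 genes on chromosome 19 are shown as well, because these genes were transcribed in every library. They are KEAP1 (chr19:10503357-10503476, minus strand), STK11 (chr19:1205658-1205777, plus strand) and SMARCA4 (chr19:10960910-10961029, plus strand), each at the first of the starts that RefSeq lists for it.
KEAP1: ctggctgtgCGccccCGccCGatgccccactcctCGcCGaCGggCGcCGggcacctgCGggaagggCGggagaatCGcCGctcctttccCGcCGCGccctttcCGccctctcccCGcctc
STK11: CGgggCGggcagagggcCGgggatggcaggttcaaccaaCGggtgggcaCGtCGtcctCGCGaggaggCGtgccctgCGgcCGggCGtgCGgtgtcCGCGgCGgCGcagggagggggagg
SMARCA4: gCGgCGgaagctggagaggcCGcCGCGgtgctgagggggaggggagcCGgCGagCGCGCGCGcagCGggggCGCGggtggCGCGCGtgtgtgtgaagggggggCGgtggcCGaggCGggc
In 250 bases these held 30, 37 and 44 CpG in that order. RefSeq lists another start for KEAP1, with 32 CpG and 2 GC boxes (described next), and for SMARCA4, with 4 CpG and 0 GC boxes, the latter below the median of all windows. The GC box GGGCGG, counted on either strand, was found in 42.6% of all windows. It occurred 3 times in the KEAP1 window, 2 times in that of STK11, 4 times in that of SMARCA4, 2 times each in those of CDKN2B and MTAP, 1 time before the p16 start and 0 times before the ARF start. These counts are a description of the reference sequence only.

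The first question was which of the 6 genes had a transcript at all. KEAP1, STK11 and SMARCA4 were detected in every library, while MTAP had at most 4 reads in a library and CDKN2A and CDKN2B had 0 in both groups. The levels ran from KEAP1 (lowest library 43.6 TPM) through STK11 (22.0 to 30.2 TPM) and SMARCA4 (2.97 to 3.74 TPM) to MTAP (at most 0.0488 TPM) and then CDKN2A and CDKN2B at 0. Neighbours in this order did not overlap in any library, except that MTAP was at 0 in A549 MOCK replicate 2, the same value as CDKN2A and CDKN2B.

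**Figure D1:**
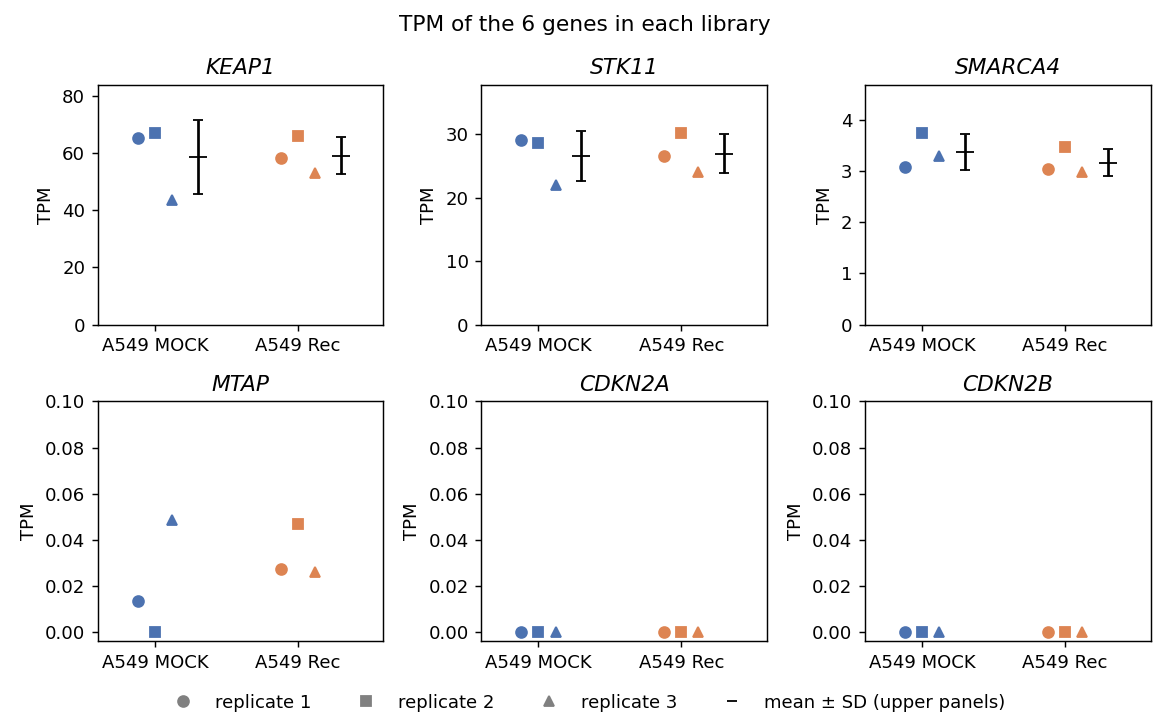
TPM (vertical axis) of each gene in the 3 A549 MOCK (blue) and 3 A549 Rec (orange) libraries, with the replicate given by the symbol. Bars in the upper panels are the mean ± SD of 3 libraries, the lower panels end at 0.1 TPM, and CDKN2A and CDKN2B lie at 0 in all 6 libraries while MTAP stays under 0.05 TPM.

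CDKN2A (ENSG00000147889, GRCh38 chr9:21967753-21995301, minus strand) was listed at 0 in all 3 A549 MOCK libraries and all 3 A549 Rec libraries. CDKN2B (ENSG00000147883, chr9:22002903-22009363, minus strand) was likewise listed at 0 in all 6. A count of 0 allows up to 3 reads, which is between 0.132 and 0.157 TPM for CDKN2A and between 0.128 and 0.152 TPM for CDKN2B, depending on the library. No fold change between the groups can be given for either gene.

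MTAP (ENSG00000099810, chr9:21802543-21937651, plus strand) stood at 0.0136, 0 and 0.0488 TPM in A549 MOCK against 0.0274, 0.0468 and 0.0260 in A549 Rec. These values stand for 1, 0 and 4 reads and for 2, 4 and 2 reads, or 13 reads in all over the 6 libraries. The groups overlapped, 3 reads corresponded to between 0.0353 and 0.0419 TPM, and MTAP was not tested between the groups because it was below the filter.

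A value of 0 in such a table can also arise where reads cannot be assigned to a gene. SMARCB1, a core SWI/SNF subunit that most cells need, was listed at 0 in all 6 libraries, and all 21 of its annotated transcripts also matched 1 alternate-haplotype sequence of GRCh38 (at least 90% of the transcript at 99% identity). CDKN2A, CDKN2B and MTAP had 0 such matches. Reads in exons shared by overlapping genes may also go uncounted, depending on settings that are not known here. In GENCODE v44, which may not be the annotation the authors used, 84.7% of the exon bases of CDKN2A, 100% of those of CDKN2B and 90.4% of those of MTAP were shared with no other gene. The part of read assignment in these values was not tested. A gene whose DNA is lost and a gene that is not transcribed cannot be told apart from these values.

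The genes listed around CDKN2A were then examined in chromosome order. A stretch of 644 kb runs from the end of MIR31HG to the start of AL157937.1. MIR31HG is a long noncoding RNA that hosts miR-31, and AL157937.1 is a long intergenic RNA. They were the nearest genes of any kind on either side at 1 TPM or more in every library. By this choice, no gene between them reached that level. The 17 genes listed wholly in this stretch are, in order, AL137022.1, KHSRPP1, RN7SL151P, MTAP, AL359922.1, TUBB8P1, AL359922.2, AL359922.3, ERVFRD-3, CDKN2A-DT, CDKN2A, CDKN2B-AS1, AL449423.1, CDKN2B, UBA52P6, RF02045 and RF01909. Of these, 14 were listed at 0 in every library, and only MTAP and the pseudogenes KHSRPP1 and TUBB8P1 had any read. The highest TPM of any of them was 0.273, and together they had 20 reads over the 6 libraries. Before MTAP only AL137022.1, KHSRPP1 and RN7SL151P are listed, and none is listed between CDKN2B-AS1 and AL157937.1. How far a loss of signal extends is therefore not shown.

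Within the stretch, CDKN2B-AS1, the antisense RNA also known as ANRIL, was at 0 in all 6 libraries. CDKN2A-DT, the divergent transcript of CDKN2A, was also at 0. AL359922.1, a gene model that starts within MTAP and runs past CDKN2B, was at 0 as well. All 8 genes listed after the end of MTAP and before AL157937.1 were at 0 in both groups. In GENCODE v44, AL359922.1, UBA52P6 and RF01909 had 0% of their exon bases shared with no other gene, and RF02045 had 0.694%. The part of read assignment in these values of 0 was not tested.

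On the near side of MTAP, MIR31HG (ending at 21559669, with MIR31 at 2 reads and RF00157 at 0 inside it) had a TPM of 50.9, 38.1 and 38.5 for the A549 MOCK and 43.5, 50.3 and 32.6 for the A549 Rec libraries. On the far side, AL157937.1 (starting at 22203990) had 10.3, 8.70 and 23.3 in the A549 MOCK libraries and 7.68, 8.88 and 12.4 in those of A549 Rec, with the highest value of each group in replicate 3. Both RNAs were chosen as edges for their level, so signal on both sides of the stretch is given by that choice. The A549 MOCK and A549 Rec libraries overlapped for both RNAs.

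The protein-coding genes nearest to the stretch had lower or uneven levels. IFNE, an interferon of epithelia that lies within MIR31HG, stood at 2.29, 3.03 and 3.62 TPM in A549 MOCK against 3.12, 4.29 and 1.54 in A549 Rec. DMRTA1, a DM-domain gene and the first coding gene beyond AL157937.1, had 1.50, 0.80 and 1.79 for the A549 MOCK and 0.90, 0.92 and 2.04 for the A549 Rec libraries, so it was under 1 TPM in 3 of the 6 libraries. KLHL9, an adaptor of a ubiquitin ligase before IFNE, was higher at 32.4, 32.0 and 21.3 in the A549 MOCK libraries and 32.0, 30.8 and 22.0 in those of A549 Rec. In each of these genes the groups overlapped.

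Within 3 Mb on either side of CDKN2A, 105 genes are listed, of which 35 are protein-coding. Of the coding genes, 10 were at 1 TPM or more in every library, 17 were at 0 in every library and 8 lay between. The 10 were all before the stretch and included the ribosomal protein gene RPS6 (774 to 866 TPM), MLLT3 (11.7 to 16.7 TPM), FOCAD (18.8 to 24.7 TPM) and KLHL9. Of the 17 at 0, 13 were among the 16 interferon genes of the cluster, most of which are normally transcribed only after infection. Beyond DMRTA1 the window held the noncoding LINC01239 (0.474 to 1.07 TPM), the pseudogene CLIC4P1 (2.25 to 5.66 TPM) and the neuronal gene ELAVL2 (at most 0.347 TPM), besides AL391117.1 and AC017067.1 with 1 and 5 reads. AL445623.2, SUMO2P2, AL445623.1, NOP56P2, AL365204.1, AL365204.2, AL365204.3, IZUMO3, AL353811.1 and RMRPP5 were listed at 0 in every library. After CDKN2A, the first coding gene at 1 TPM or more in every library was TUSC1, 3.68 Mb on, at 1.74, 1.58 and 1.30 TPM in A549 MOCK against 1.66, 1.50 and 1.39 TPM in A549 Rec.

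**Figure D2:**
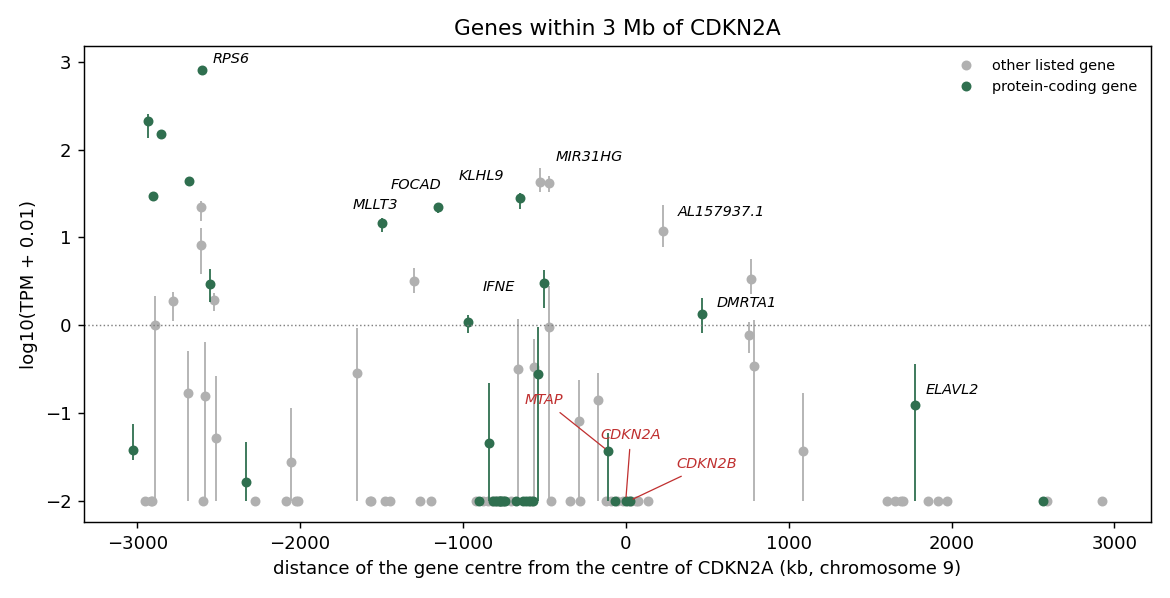
Each point is a gene listed within 3 Mb of CDKN2A, placed by the distance of its centre from that of CDKN2A (kb, horizontal axis) and by its mean level over 6 libraries (log10 of TPM + 0.01, vertical axis, so that 0 TPM lies at -2 and 1 TPM at the dotted line). Lines run from the lowest to the highest library, and CDKN2A, CDKN2B and MTAP (red) lie between MIR31HG and AL157937.1 in the stretch where no gene exceeded 0.273 TPM.

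KEAP1 (ENSG00000079999, chr19:10486120-10503741, minus strand) had a TPM of 65.3, 67.0 and 43.6 for the A549 MOCK and 58.1, 65.8 and 53.0 for the A549 Rec libraries. It ranked 2131 among the 16343 coding genes above 0. A549 MOCK replicate 3 was the lowest library, A549 Rec replicate 3 was the lowest of its group, and the groups overlapped. With the mitochondrial genes left out, the values were 75.6, 79.5 and 66.6 in the A549 MOCK libraries and 70.3, 76.0 and 72.6 in those of A549 Rec, so the spread was smaller and A549 MOCK replicate 3 was still lowest. The part of the mitochondrial share in these values was not tested further. KEAP1 was covered by 6990 reads over the 6 libraries, and none of its exon bases is shared with another gene.

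STK11 (ENSG00000118046, chr19:1177558-1228435, plus strand) stood at 29.1, 28.5 and 22.0 TPM in A549 MOCK against 26.5, 30.2 and 24.0 in A549 Rec. It ranked 4541 of 16343. The lowest library of each group was again replicate 3, and the groups overlapped. Without the mitochondrial genes, STK11 had 33.6, 33.8 and 33.6 TPM for the A549 MOCK and 32.1, 34.8 and 32.9 TPM for the A549 Rec libraries, where the replicate 3 libraries no longer stood apart. STK11 was covered by 7309 reads.

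SMARCA4 (ENSG00000127616, chr19:10960825-11079426, plus strand) was the lowest of the 3 detected genes, with a TPM of 3.07, 3.74 and 3.30 in the A549 MOCK libraries and 3.05, 3.47 and 2.97 in those of A549 Rec. It ranked 10672 of 16343 and was covered by 1634 reads. TPM divides reads by gene length, here 15778 bases as recovered, and the part of length in this rank was not tested. Replicate 2 was highest in both groups, and the groups overlapped. Without the mitochondrial genes the values were 3.55, 4.44 and 5.04 in A549 MOCK against 3.68, 4.00 and 4.07 in A549 Rec. Replicate 3 was thus the lowest SMARCA4 library of A549 Rec but not of A549 MOCK, and without the mitochondrial genes it was the highest of both groups.

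Against their neighbours on chromosome 19, the 3 genes held different places. Within 0.25 Mb on either side, KEAP1 was 4th of 23 coding genes by mean TPM, whose median was 21.8. STK11 was 13th of 24, with a median of 33.0 TPM, and SMARCA4 was 13th of 15, with a median of 23.3 TPM. Such places also depend on the gene lengths that TPM divides by, whose part was not tested. At least 1 TPM in every library was found for 17, 23 and 13 of these coding genes in the windows of KEAP1, STK11 and SMARCA4. The 10 of 35 around CDKN2A cannot be set directly against these, as that window was wider (3 Mb on either side) and held 16 interferon genes.

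Rec against MOCK was the comparison of the study. Of the 6 genes, 3 passed the filter of 1 TPM in at least 3 libraries, and none of the 3 was a differentially expressed gene (DEG) with the study's thresholds of 0.05 for the adjusted p and 2 for the fold change. Over all 17408 tested genes, 1 gene, RCVRN itself, passed in limma on TPM (0.00574%). The study used DESeq2, a different test on read counts, and reported more DEGs, so this count does not repeat the study's test. Without adjustment, 178 genes were higher (1.02%) and 181 lower (1.04%) at a p under 0.05 in limma, and none of the 3 genes was among them. In such bulk RNA, fewer cells with a transcript and less transcript per cell cannot be told apart. Fold changes are on the scale of log2(TPM + 1) and understate changes of genes as low as SMARCA4.

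KEAP1 averaged 58.7 ± 13.0 TPM (SD, n = 3) in A549 MOCK and 59.0 ± 6.45 TPM in A549 Rec, a log2 difference of 0.03 ± 0.19 (standard error, limma adjusted p = 0.9997, exact permutation p = 0.9). STK11 averaged 26.5 ± 3.93 and 26.9 ± 3.10 TPM, a log2 difference of 0.02 ± 0.15 (standard error, limma adjusted p = 0.9997, exact permutation p = 0.9). SMARCA4 averaged 3.37 ± 0.342 and 3.16 ± 0.270 TPM, a log2 difference of -0.07 ± 0.14 (standard error, limma adjusted p = 0.9997, exact permutation p = 0.5). In all 3 genes the difference was smaller than the spread between libraries. The permutation tests are two-sided and cannot go below 0.1 with 3 libraries against 3.

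The 95% intervals of these fold changes ran from 0.753 to 1.38 for KEAP1, from 0.801 to 1.29 for STK11 and from 0.754 to 1.20 for SMARCA4, in TPM + 1, in the fit without pairs. With the pair as a block the standard errors were 0.10, 0.085 and 0.14 in that order. The sign for KEAP1 and STK11 depended on the libraries and on the scaling. Without the mitochondrial genes both log2 differences were -0.02, and without both replicate 3 libraries they were -0.10 and -0.02, while without A549 MOCK replicate 3 alone they were -0.17 and -0.10. SMARCA4 was lower in A549 Rec in each of these fits, and no fit made any of the 3 a DEG.

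Libraries with the same number can also be compared pair by pair, though the labels do not say that they are pairs. A549 Rec minus A549 MOCK was -7.16, -1.18 and 9.40 TPM for KEAP1 in pairs 1, 2 and 3 and -2.53, 1.67 and 2.03 TPM for STK11. It was -0.02, -0.27 and -0.33 TPM for SMARCA4. On this scale SMARCA4 had the same sign in all 3 pairs, but without the mitochondrial genes pair 1 was 3.55 TPM in A549 MOCK and 3.68 TPM in A549 Rec, the opposite sign. With the pair as a block the limma adjusted p of each of the 3 genes was 0.998.

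The genes that work with each of the 6 were then examined as lists. In each list the tested genes had a median log2 difference near that of all tested genes, which was 0.02, and none was a DEG.

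**Figure D3:**
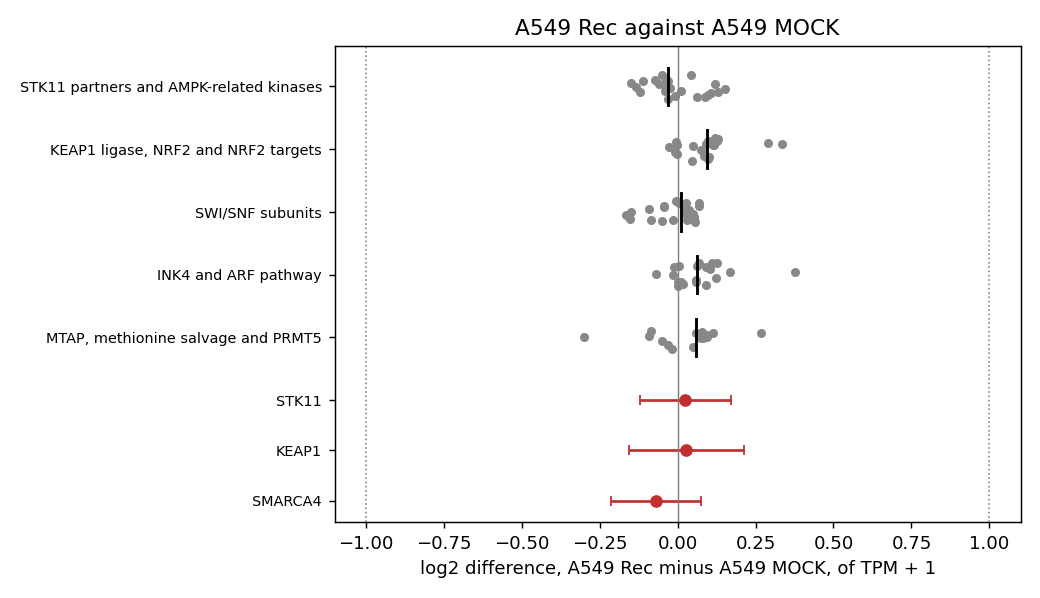
Log2 differences of TPM + 1, A549 Rec minus A549 MOCK (horizontal axis), for the tested genes of each pathway list (grey points, with the median as a black bar, scattered vertically for sight only) and for STK11, KEAP1 and SMARCA4 (red, ± standard error from limma). Every point lies within the dotted lines at a fold change of 2, and the largest difference, that of CDKN2D, is 0.38.

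For STK11, 24 of 26 partners, AMPK subunits, AMPK-related kinases and CRTC coactivators were tested, with a median of -0.03 and a range of -0.15 to 0.15. None had an unadjusted limma p under 0.05, against 1.02% higher and 1.04% lower over all genes. STRADA, a pseudokinase that activates LKB1, was low and did not pass the filter. It had 0.676, 0.486 and 0.968 TPM for the A549 MOCK and 0.793, 0.788 and 0.577 TPM for the A549 Rec libraries. STRADB, the related gene of the list, was higher, with 36.6, 36.4 and 23.6 TPM for A549 MOCK and 29.6, 34.9 and 36.8 TPM for A549 Rec. CAB39, the scaffold MO25 of the same complex, had 34.2, 32.1 and 25.7 TPM in the A549 MOCK libraries and 33.4, 33.9 and 31.2 TPM in those of A549 Rec. STRADA and CAB39 overlapped between the groups. In GENCODE v44, 81.9% of the exon bases of STRADA were shared with no other gene, and the part of read assignment in its level was not tested. Nor was that of its recovered length, 10860 bases against 3242 for STRADB.

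MARK2, a polarity kinase downstream of LKB1, had 34.7, 34.6 and 30.2 TPM in A549 MOCK against 35.3, 39.7 and 35.9 TPM in A549 Rec. Every A549 Rec library was above every A549 MOCK library, and the log2 difference of 0.15 ± 0.11 (standard error) did not pass (limma adjusted p = 0.9997). NUAK1, an AMPK-related kinase, also had no overlap, with 8.19, 8.11 and 7.50 TPM for A549 MOCK and 8.51, 8.86 and 8.94 TPM for A549 Rec. These were 2 of the 24 tested genes of the list, beside 5.16% of all tested genes whose groups did not overlap in either direction. NUAK2, another AMPK-related kinase, had 48.1, 49.0 and 65.7 TPM for the A549 MOCK and 44.9, 44.9 and 56.0 TPM for the A549 Rec libraries, highest in replicate 3 of both groups. PRKAG1, a gamma subunit of AMPK, was among the most abundant of the list at 37.2 to 47.7 TPM. In GENCODE v44, 38.2% of its exon bases were shared with no other gene, and the part of read assignment in its level was not tested.

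For KEAP1, all 20 of its ligase partners, NRF2 and NRF2 targets were tested, with a median of 0.09 and a range of -0.03 to 0.33. Above 0 were 15 of the 20, beside 56.6% of all tested genes. None had an unadjusted limma p under 0.05. NFE2L2, the gene of NRF2, had 35.5, 33.7 and 43.2 TPM in the A549 MOCK libraries and 38.4, 36.0 and 43.7 TPM in those of A549 Rec. Its level was a little below that of KEAP1 and highest in replicate 3 of both groups, where KEAP1 was lowest.

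The 2 targets named here were at higher levels than KEAP1 and NFE2L2 in every library. AKR1B10, an aldo-keto reductase induced by NRF2, had 2565, 2342 and 1199 TPM in A549 MOCK against 2802, 2780 and 1852 TPM in A549 Rec. AKR1C1, a related reductase that may share reads with near-identical AKR1C genes, had 175, 158 and 92.9 TPM in the A549 MOCK libraries and 182, 193 and 135 TPM in those of A549 Rec. In both targets replicate 3 was lowest in both groups, as in KEAP1.

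AKR1B10 and AKR1C1 had the largest differences of the list, 0.33 ± 0.34 (standard error) and 0.29 ± 0.26 (standard error, limma adjusted p = 0.9997 for both). Both were higher in A549 Rec in each of the 3 pairs, but without A549 MOCK replicate 3 the log2 differences were -0.0098 and 0.013. With the pair as a block AKR1C1 had an unadjusted limma p of 0.0389 and an adjusted p of 0.998, in a fit where 4.11% of all tested genes had an unadjusted p under 0.05.

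For SMARCA4, 24 of 27 other SWI/SNF subunits were tested, with a median of 0.01 and a range of -0.17 to 0.07, and none had an unadjusted limma p under 0.05. SMARCA4 was among the lowest subunits, with 22 of the 27 above it by mean TPM and 5 below it, and the median of the subunits was 17.1 TPM. The most abundant were SMARCD2 (49.2 to 68.4 TPM) and SMARCD1 (47.7 to 62.2 TPM), which are accessory subunits. Below SMARCA4 were DPF1, SMARCE1, DPF3, ACTL6B and SMARCB1, of which DPF1, DPF3 and ACTL6B are known mainly from neurons or muscle. In GENCODE v44, 81.1% of the exon bases of SMARCE1 were shared with no other gene, and the part of read assignment in its level was not tested. The recovered lengths that TPM divides by were 15778 bases for SMARCA4 and 18680 for SMARCE1, against 3734 for SMARCD2 and 5136 for SMARCD1. SMARCA2, ARID1A and ARID1B lie above SMARCA4 with longer ones, of 18595, 15928 and 44677 bases. The part of length in this order was not tested.

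**Figure D4:**
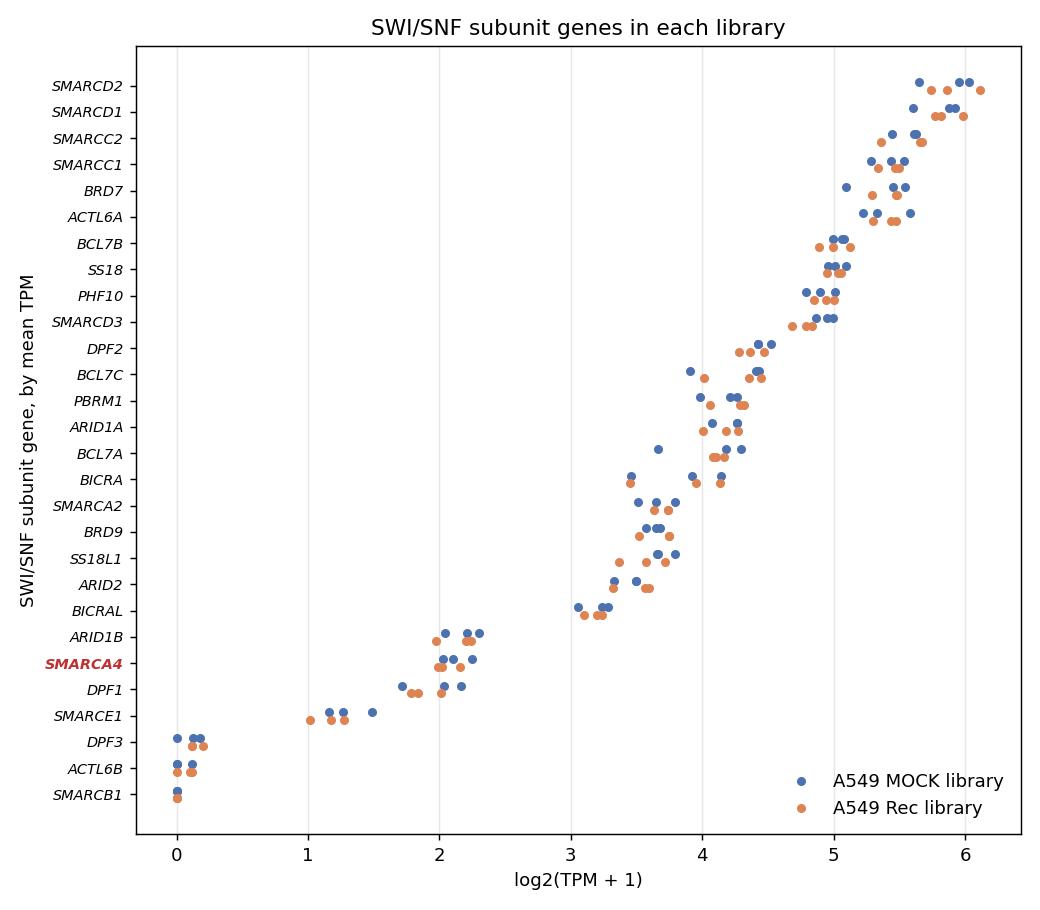
Level of SMARCA4 (red label) and 27 other SWI/SNF subunit genes in each library (horizontal axis, log2 of TPM + 1, 0 meaning 0 TPM), ordered by mean TPM, with A549 MOCK in blue and A549 Rec in orange. SMARCA4 lies below 22 of the 27, SMARCB1 lies at 0 in all 6 libraries, and the 2 colours overlap in every tested gene except SMARCD3.

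SMARCA2, which encodes BRM, the alternative ATPase of the same complexes, stood at 12.9, 11.5 and 10.4 TPM in A549 MOCK against 12.3, 12.4 and 11.4 in A549 Rec. It was between 3.08 and 4.20 times the level of SMARCA4 in every library. SMARCA4 made up 19.2%, 24.5% and 24.0% of the ATPase TPM of A549 MOCK against 19.8%, 21.9% and 20.7% of A549 Rec, or 22.6% ± 2.91 and 20.8% ± 1.06 (SD, n = 3). The difference of -1.78 percentage points was within the spread of the libraries (exact permutation p = 0.4, two-sided).

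SMARCD3 and SS18L1 had the largest differences among the subunits. SMARCD3 had 28.2, 29.9 and 30.8 TPM for the A549 MOCK and 26.6, 27.6 and 24.8 TPM for the A549 Rec libraries, a log2 difference of -0.17 ± 0.10 (standard error, limma adjusted p = 0.9997). Its groups did not overlap, A549 Rec being lower throughout, against 5.16% of all tested genes whose groups did not overlap. SS18L1 had 11.6, 11.7 and 12.9 TPM in the A549 MOCK libraries and 10.9, 12.1 and 9.31 TPM in those of A549 Rec, and its groups overlapped.

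For CDKN2A and CDKN2B, 20 of 22 genes of the cell cycle pathways that p16, p15 and ARF act on were tested, with a median of 0.06. Of the 20, 17 were above 0, beside 56.6% of all tested genes. CDK4 had 245, 224 and 174 TPM in A549 MOCK against 243, 239 and 199 TPM in A549 Rec, and CDK6 was between 19.6 and 22.4 TPM. RB1, the pocket protein that CDK4 and CDK6 phosphorylate, was between 20.8 and 27.4 TPM. CDKN1A, the p21 inhibitor of cyclin-dependent kinases, had 159, 148 and 142 TPM for the A549 MOCK and 143, 156 and 213 TPM for the A549 Rec libraries. In these 4 genes the groups overlapped.

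CDKN2D, which encodes p19, an INK4 inhibitor on chromosome 19, was the only gene of the list with an unadjusted limma p under 0.05 (1 of 20, against 1.02% of all genes in this direction). It had 8.06, 6.62 and 7.47 TPM in the A549 MOCK libraries and 10.1, 10.2 and 9.22 TPM in those of A549 Rec, so every A549 Rec library was above every A549 MOCK library. The log2 difference was 0.38 ± 0.12 (standard error), an unadjusted p of 0.0136 and an adjusted p of 0.9997 in limma, and thus did not pass. It rested on 412 reads over the 6 libraries.

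For MTAP, 15 of 16 genes of methionine salvage, polyamine synthesis and the PRMT5 complex were tested, with a median of 0.06 and a range of -0.30 to 0.27. None had an unadjusted limma p under 0.05. PRMT5, the arginine methyltransferase that methylthioadenosine inhibits, had 113, 108 and 92.7 TPM in A549 MOCK against 111, 112 and 101 TPM in A549 Rec. SMS and AHCY, which make spermine and hydrolyse S-adenosylhomocysteine, were the most abundant at 208 to 297 and 163 to 228 TPM. Each of these overlapped between the groups, with replicate 3 lowest in both.

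ADI1 and IL4I1 had the largest differences of this list. ADI1, an enzyme of salvage downstream of MTAP, had 18.1, 16.4 and 14.3 TPM for the A549 MOCK and 18.7, 26.8 and 15.2 TPM for the A549 Rec libraries, with A549 Rec replicate 2 standing above the rest. IL4I1, an amino acid oxidase, had 9.22, 9.42 and 4.87 TPM in the A549 MOCK libraries and 6.72, 6.34 and 4.89 TPM in those of A549 Rec. Neither passed, with log2 differences of 0.27 ± 0.21 (standard error) and of -0.30 ± 0.24 (standard error, limma adjusted p = 0.9997 for both).

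The genes most like each detected gene over the 6 libraries were found by Pearson's r of log2(TPM + 1). For STK11 they were SYNGR2 (r = 0.998), CRELD2 (0.998) and RUSC1-AS1 (0.997), and for KEAP1 they were ST20-AS1, COPS8 and KXD1 (0.998 each). STK11 and KEAP1 had an r of 0.973 with each other, and 4210 and 4236 genes had an r of at least 0.9 with them. For SMARCA4 they were AL391121.1 (0.987), RNU6-652P (0.974) and LRP1-AS (0.973), only 87 genes reached 0.9, and its r was 0.360 with STK11 and 0.347 with KEAP1. These are descriptions over 6 libraries that share the scaling by a fixed sum, in which both replicate 3 libraries stand apart.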

How the data were processed

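RNA of 3 A549 Rec and 3 A549 MOCK cultures was sequenced as paired reads. The authors trimmed reads with Trimmomatic 0.38 after FastQC 0.11.7, mapped them to GRCh38 with HISAT2 2.1.0, counted them per gene with featureCounts 1.6.3 and deposited TPM, which sum to 1000000 per library (versions per the submitters' processing notes and the methods). Those notes name a mouse build, while the methods name GRCh38 and the deposited genes are human. The annotation release, strand setting and treatment of reads with several hits are not given in the sources used here. Groups and replicate numbers come from the labels. Whether replicates were independent cultures is not detailed, so p-values measure the spread between these libraries only.

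Read numbers were recovered from the TPM as whole multiples of a step per library and gene length (tolerance 0.01). Lengths were chosen for whole values, so wholeness is no test of the recovery. On simulated data 96.2% of 28414 genes were recovered. Floors of 3 reads cover counting error only. The 17408 genes that reached 1 TPM in 3 or more libraries were tested with limma 3.58.1 in R 4.3.3 (lmFit, eBayes with trend) on log2(TPM + 1) with Benjamini-Hochberg adjustment over all of them. Single values were tested by an exact permutation test (scipy 1.17.1). In a simulation of this comparison on 17408 genes, 179 of 200 genes changed 3-fold were called, with 3 others. The changed genes were drawn from those with a mean log2(TPM + 1) above 3, a level that SMARCA4 did not reach. Noise was drawn for each gene separately, without the deviations that libraries share, so the result may not carry over to these libraries. Count tests were not used, as the unit is TPM. Exon overlap used GENCODE v44, and alternate-haplotype matches used minimap2.

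The genes and lists were chosen with earlier results of these data known. Named genes were the 6 genes, those between the expressed coding neighbours on 9p21 (within 3 Mb of CDKN2A), a few fixed members of each list, its 2 most abundant and its 2 most changed genes, those with an unadjusted p under 0.05, and the 3 most alike genes. Some genes that this rule names are not reported here. Beyond these, DPF1, SMARCE1, DPF3, ACTL6B and SMARCB1 (below SMARCA4), NUAK1 as a gene without overlap, and RPS6, MLLT3, FOCAD and KLHL9 were named after their values were seen. So were STRADB, ARID1A, ARID1B, SRXN1, OSGIN1, GCLC, NQO1, GCLM, TXNRD1, ME1, SLC7A11 and HMOX1.

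Deviations from the group mean had an r of 0.115, 0.164 and 0.342 between libraries with the same number (17408 genes). Libraries with unlike numbers were not correlated, so these values cannot show that the numbers pair the libraries. Pairs by number, and the replicate block, are therefore an assumption. Alternatives were the pseudocount, the filter, quantile normalization, rescaling without mitochondrial genes, no trend, the replicate block, and leaving out libraries. Leaving out both replicate 3 libraries was added after the data were seen.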

Additional observations from a re-analysis of the deposited data

How the results depend on the processing

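No alternative made KEAP1, STK11 or SMARCA4 a DEG. The log2 differences of STK11 and KEAP1, near 0 at 0.02 and 0.03, reversed to -0.018 and -0.015 when TPM was rescaled without mitochondrial genes, which also moved the median of all genes from 0.02 to -0.02. They reversed to -0.024 and -0.095 without both replicate 3 libraries. With each library left out in turn, they ranged from -0.10 to 0.10 and from -0.17 to 0.14, and the lowest values came without A549 MOCK replicate 3. SMARCA4 stayed between -0.12 and -0.01, and its share of the ATPase TPM differed by -3.45 to -0.83 points. The replicate block changed no call. The number of DEGs was 1, and it became 6 with no filter on low TPM and 6 without trend, where RCVRN was joined by MIR8075, RNU6-173P and 3 genes named RF00019. It ranged from 1 to 2 with a library left out, being 2 without A549 Rec replicate 2 (RNU6-531P), and was 2 without both replicate 3 libraries (AC090498.1). None of these is a member of the pathway lists. The coding genes at 1 TPM in every library around CDKN2A were 10 within 3 Mb and 3 within 1 Mb, a smaller window by construction. The 3 detected genes were detected in each alternative. Depth limits CDKN2A and CDKN2B to statements about the floor of 3 reads. MTAP, with at most 4 reads in a library, lay near that floor.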
